A study of Mus musculus with 50 samples.

Results

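The immunoglobulin heavy chain variable genes (Ighv) were followed through 50 poly(A) RNA libraries of mouse lymph nodes. Members were the rows of the gene table whose symbol begins with Ighv and whose estimated counts summed to at least 10 over the 50 libraries. This gave 125 genes out of 183 rows with such a symbol and 56600 rows in all, while 25 of the other rows had no count and 33 had a sum above 0 but under 10. The members nearest to that limit on the inside were Ighv1-21 (summed count 12.4), Ighv6-5 (13.6) and Ighv8-13 (13.8), and the nearest on the outside were Ighv1-41 (9.04), Ighv1-62 (7.02) and Ighv1-24 (6.47).

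All mice were C57BL/6J (genotype label C57B6) and were killed at postnatal day 56. They came from later litters (the 2nd and the 3rd) of dams fed 1 of 2 diets from 3 weeks ahead of breeding, either deficient in vitamin A or sufficient, with 20 IU/g. The duodenal, jejunal, ileal and colonic nodes, each named for the gut segment it drains, and the inguinal node, which drains skin, gave 5 libraries each per diet. All 25 deficient libraries came from females, and in each sufficient node numbers 1 and 2 were female and numbers 3, 4 and 5 male. Effects of dam or litter and effects of diet cannot be told apart. The labels tie no node to a mouse, so the spread between libraries may be partly technical. Libraries held 5335369 to 8904722 counts, of which 1456 to 22426 fell on the 125 members. Markers of B cells were detected in every group, with a summed level of 0.226% to 0.697% of all counts for the 13 genes of that list. In 10 deficient libraries the transcript Gm19220 took at most 1.70% of counts, against at least 5.37% in the other 40, and these 10 are called the low Gm19220 libraries. Pancreatic genes took 25.4% of counts in sufficient duodenal 5 and 23.3% in deficient duodenal 4.

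A B cell assembles the variable part of its heavy chain by joining 1 V, 1 D and 1 J segment of the Igh locus, so that the V gene seen in its RNA is a mark handed on to its descendants. Plasma cells, which secrete antibody, carry far more of this RNA per cell than resting B cells. Gut-draining nodes are exposed to intestinal antigens, and many of their activated B cells switch to IgA. Retinoic acid, made from vitamin A, is known to favour gut homing and IgA switching. The counts hold no junction sequences, so a gene's share cannot be split into clones, and fewer cells and less RNA per cell cannot be told apart.

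The last 300 coding bases of 5 members on which the results turn are shown here, 5′ to 3′, from the GENCODE M21 transcripts (build GRCm38, chromosome 12, minus strand), which end where the joined D segment would begin. Capitals mark bases that differ from Ighv1-26 in the pairwise alignment; Ighv7-3, of another family, is given in lower case throughout. Ighv1-26 had the highest mean share, Ighv1-72 and Ighv1-42 led deficient libraries, Ighv1-82 led 2 deficient nodes numbered 5, and Ighv7-3 differed between gut-draining and inguinal nodes.
Ighv1-26: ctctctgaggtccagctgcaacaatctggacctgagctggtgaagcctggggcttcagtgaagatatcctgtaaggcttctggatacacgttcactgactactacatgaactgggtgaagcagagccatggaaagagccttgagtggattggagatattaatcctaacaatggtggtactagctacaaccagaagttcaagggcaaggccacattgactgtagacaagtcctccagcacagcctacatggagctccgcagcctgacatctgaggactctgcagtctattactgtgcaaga
Ighv1-72: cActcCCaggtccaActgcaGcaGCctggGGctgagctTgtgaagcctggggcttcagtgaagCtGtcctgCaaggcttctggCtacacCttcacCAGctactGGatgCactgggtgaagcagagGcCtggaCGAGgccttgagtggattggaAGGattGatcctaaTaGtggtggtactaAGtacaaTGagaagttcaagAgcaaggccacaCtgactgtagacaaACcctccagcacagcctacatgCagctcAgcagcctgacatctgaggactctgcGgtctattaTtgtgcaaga
Ighv1-42: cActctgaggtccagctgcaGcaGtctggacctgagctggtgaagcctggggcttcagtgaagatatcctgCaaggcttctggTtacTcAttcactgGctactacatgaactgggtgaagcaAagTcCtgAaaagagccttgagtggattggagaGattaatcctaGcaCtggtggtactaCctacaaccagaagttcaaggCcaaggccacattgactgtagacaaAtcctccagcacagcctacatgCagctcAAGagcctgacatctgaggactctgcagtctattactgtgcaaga
Ighv1-82: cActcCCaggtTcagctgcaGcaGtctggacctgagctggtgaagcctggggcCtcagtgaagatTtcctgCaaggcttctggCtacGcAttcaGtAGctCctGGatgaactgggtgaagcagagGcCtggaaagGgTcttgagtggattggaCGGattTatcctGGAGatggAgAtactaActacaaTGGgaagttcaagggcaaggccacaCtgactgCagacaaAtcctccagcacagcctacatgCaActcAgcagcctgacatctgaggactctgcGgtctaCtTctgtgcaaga
Ighv7-3: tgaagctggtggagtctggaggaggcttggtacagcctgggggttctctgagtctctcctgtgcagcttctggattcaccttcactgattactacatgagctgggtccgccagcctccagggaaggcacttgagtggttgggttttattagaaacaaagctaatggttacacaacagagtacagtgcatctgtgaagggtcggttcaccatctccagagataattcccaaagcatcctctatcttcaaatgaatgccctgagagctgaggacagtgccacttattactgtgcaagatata
These genes lie at chr12:114788372-114788805 (Ighv1-26), chr12:115757984-115758461 (Ighv1-72), chr12:114937113-114937544 (Ighv1-42), chr12:115952538-115953005 (Ighv1-82) and chr12:114153180-114153644 (Ighv7-3). Over the whole coding part, identity to Ighv1-26 was 83.2% for Ighv1-72 (59 differing bases, 45 in the stretch shown), 91.7% for Ighv1-42 (29 and 22), 84.9% for Ighv1-82 (53 and 45) and 57.6% for Ighv7-3. Several members have a closer copy among the 125, and estimated counts may be split between such copies. The transcript of Ighv1-72 was 99.1% identical to that of Ighv1-62-3, Ighv1-26 96.9% to Ighv1-18, Ighv1-42 96.3% to Ighv1-30, Ighv1-82 95.4% to Ighv1-80 and Ighv7-3 93.4% to Ighv7-4. Ighv1-62-3 held 0.0395% of Ighv counts on average, Ighv1-30 0.00710% and Ighv7-4 0.204%, whereas Ighv1-18 held 1.48% and Ighv1-80 2.21%.

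Use was uneven across the members. Of the 125, 106 are annotated as functional V genes and 19 as pseudogenes, 61 had a count of at least 1 in every library and 11 in fewer than 10. The members with the highest mean share of Ighv counts were Ighv1-26 (7.62%), Ighv7-3 (5.07%), Ighv1-72 (4.72%), Ighv1-82 (3.63%), Ighv9-3 (3.47%), Ighv4-1 (3.13%), Ighv1-42 (2.81%) and Ighv3-6 (2.78%). The 15 highest members together held 50% of the mean use. The gene with the highest share in a library, called its leading gene, was 1 of 18 genes over the 50 libraries. Ighv1-26 led 8 libraries, Ighv1-72 and Ighv7-3 6 each, Ighv1-42 and Ighv9-3 4 each, and Ighv1-82 and Ighv5-4 3 each. The leading gene was the same after division by transcript length in 47 of 50 libraries.

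The total Ighv share of a library was first compared between nodes. It was several times higher in gut-draining than in inguinal nodes on both diets. On the sufficient diet the 5 inguinal libraries held 0.0262%, 0.0371%, 0.0215%, 0.0236% and 0.0222% of all counts as Ighv. The 20 gut-draining libraries had a mean of 0.0745% ± 0.0225 (SD, n = 20), 2.79-fold above inguinal on the geometric mean. The groups touched only through sufficient duodenal 5 (0.0338%), the library with 25.4% pancreatic counts, against sufficient inguinal 2. Deficient inguinal libraries held 0.0224%, 0.0621%, 0.0487%, 0.0348% and 0.0291%, and the gut-draining libraries 0.152% ± 0.0470 (n = 20), 3.93-fold higher and without overlap. Both differences passed an exact two-sided permutation test over libraries (adjusted p = 0.000207 for each, Benjamini-Hochberg over 11 tests). Libraries of 4 nodes were pooled on the gut side, and if they share mice these p-values are too small. Within the gut, duodenal libraries on the deficient diet held 0.111% ± 0.0262 and ileal ones 0.157% ± 0.0263 (n = 5 each), which overlapped (0.70-fold, adjusted p = 0.0499 by the exact permutation test). That call was lost without deficient number 1, 2, 4 or 5 (adjusted p = 0.0729, 0.0891, 0.140 and 0.126 by the exact permutation test), and with pancreatic genes and Gm19220 taken out of the total (0.0800). The other comparisons within the gut did not pass (adjusted p = 0.0853 each by the exact permutation test).

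**Figure D1:**
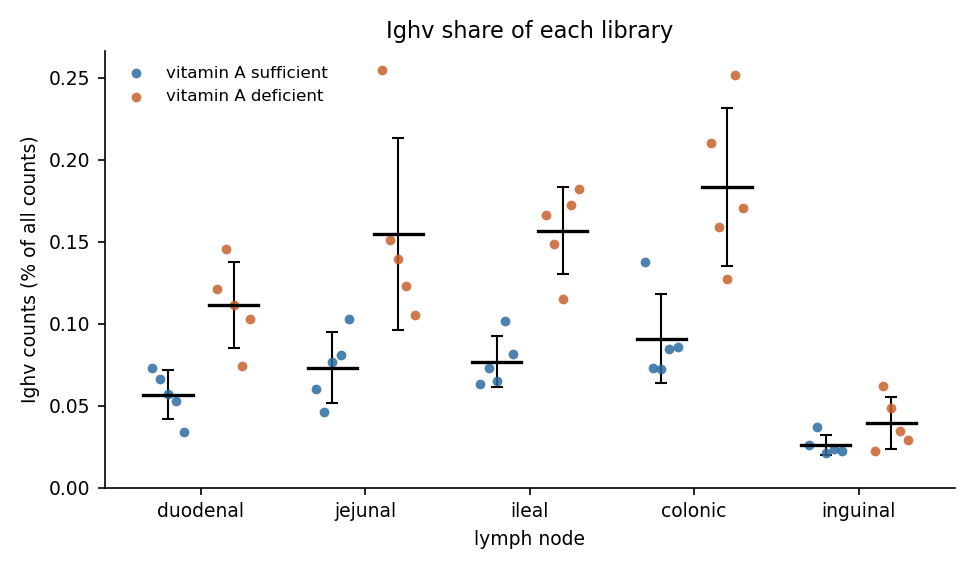
Ighv counts as a percent of all counts (y axis) in each of the 50 libraries, by node (x axis) and diet (colour). Points are libraries, bars the mean and SD of 5. Inguinal libraries lie between 0.0215% and 0.0621%, and deficient gut-draining libraries reach 0.255%.

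Deficient libraries held about double the Ighv share of sufficient ones in each gut-draining node. In duodenal nodes the 5 deficient libraries held 0.122%, 0.146%, 0.112%, 0.0743% and 0.103% and the sufficient ones 0.0732%, 0.0663%, 0.0575%, 0.0533% and 0.0338%. In ileal nodes the deficient values were 0.167%, 0.149%, 0.115%, 0.172% and 0.182%, against 0.0631%, 0.0734%, 0.0651%, 0.102% and 0.0816%. Neither node had overlap between the diets. The fold was 1.98 in duodenal, 2.09 in jejunal and 2.04 in ileal nodes (adjusted p = 0.0175 each by the exact permutation test, with the unadjusted p of 0.00794 the smallest that 5 against 5 allows). In colonic nodes it was 2.03 (0.184% ± 0.0482 against 0.0909% ± 0.0271, n = 5 each, adjusted p = 0.0291 by the exact permutation test), and sufficient colonic 1 (0.138%) lay above deficient colonic 3 (0.127%). In inguinal nodes it was 1.44 and did not pass (adjusted p = 0.119). The diet effect was not shown to differ between gut-draining and inguinal nodes (ratio of folds 1.41, p = 0.230 by an exact permutation test that was added after the data were seen). That test took 1 gut-draining minus inguinal value per library number, 5 against 5. The share tests held no sex term, and sex differed in part with diet. With females alone, 5 against 2 libraries, the folds could not pass after adjustment. Their log2 differences were 0.64, 1.49, 1.19 and 0.83 in duodenal, jejunal, ileal and colonic nodes. With all libraries these were 0.98, 1.06, 1.03 and 1.02.

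Genes read beside the Ighv share moved as follows. The plasma cell list summed to 0.0714% to 0.178% of counts in sufficient gut-draining libraries and 0.108% to 0.239% in deficient ones, and to 0.0722% to 0.109% in the 10 inguinal libraries. The B cell list was highest in inguinal libraries (0.496% to 0.697%), where the Ighv share was lowest. Of 8 heavy chain constant genes, 4, 2, 2, 3 and 1 were higher with deficiency in duodenal, jejunal, ileal, colonic and inguinal nodes, and 0 lower. The shares of all genes called there were 10.3%, 4.61%, 5.81%, 2.25% and 0.852%. Among the 8, Ighg2b, the constant region of IgG2b, was higher on the deficient diet in all 5 nodes (log2 2.52 ± 0.64 to 3.62 ± 0.72, adjusted p at most 0.0400 in edgeR's quasi-likelihood test), whereas Igha, that of IgA, passed in none (log2 -1.18 to 1.17). Igha was higher in gut-draining than in inguinal nodes on the sufficient (log2 7.00 ± 0.52) and the deficient diet (5.96 ± 0.49). Ighm and Ighd, expressed by naive B cells, made up 77.4% to 98.9% of heavy chain constant counts in inguinal and 17.0% to 66.2% in gut-draining libraries. Ighv counts per constant gene count were 0.0696 to 0.123 in inguinal and 0.0923 to 0.184 in gut-draining libraries. Between gut-draining and inguinal nodes on the sufficient diet, 7 of 16 plasma cell genes were higher and 1 lower, and all 13 B cell genes were lower, against 17.2% of all genes called. The same comparison with deficiency called 8 plasma cell genes higher and 10 B cell genes lower, against 5.78%. Jchain, which joins secreted IgA and IgM chains, was among the higher ones (2.58 ± 0.40 and 2.77 ± 0.40). Germinal centre genes gave 3 and 1 of 14 higher. Of 12 T cell genes, 9 were lower in gut-draining nodes on the sufficient diet. Between the diets, 7 of 13 B cell genes, 3 of 16 plasma cell genes and 2 of 12 T cell genes were higher with deficiency in duodenal nodes, where 10.3% of all genes were called. In jejunal nodes the counts were 3, 2 and 2 (4.61% of all genes), in ileal nodes 0, 3 and 7 (5.81%) and in colonic nodes 0, 5 and 1 (2.25%). Lower with deficiency were 1 plasma cell gene in each of the duodenal, jejunal and ileal nodes and 2 B cell genes in ileal nodes. The part of cell numbers in the Ighv share was not tested.

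For single members, edgeR's quasi-likelihood test was fitted to all 18077 genes that passed a filter on low counts, and a Benjamini-Hochberg adjusted p of at most 0.05 was taken as a call. Of the 125 members, 90 passed that filter and 35 did not. In brackets behind a gene stand its log2 fold change with the standard error, and then the adjusted p. The fit counts all libraries as separate. Where nodes are pooled, its p-values and standard errors may be too small if those nodes share mice.

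**Figure D2:**
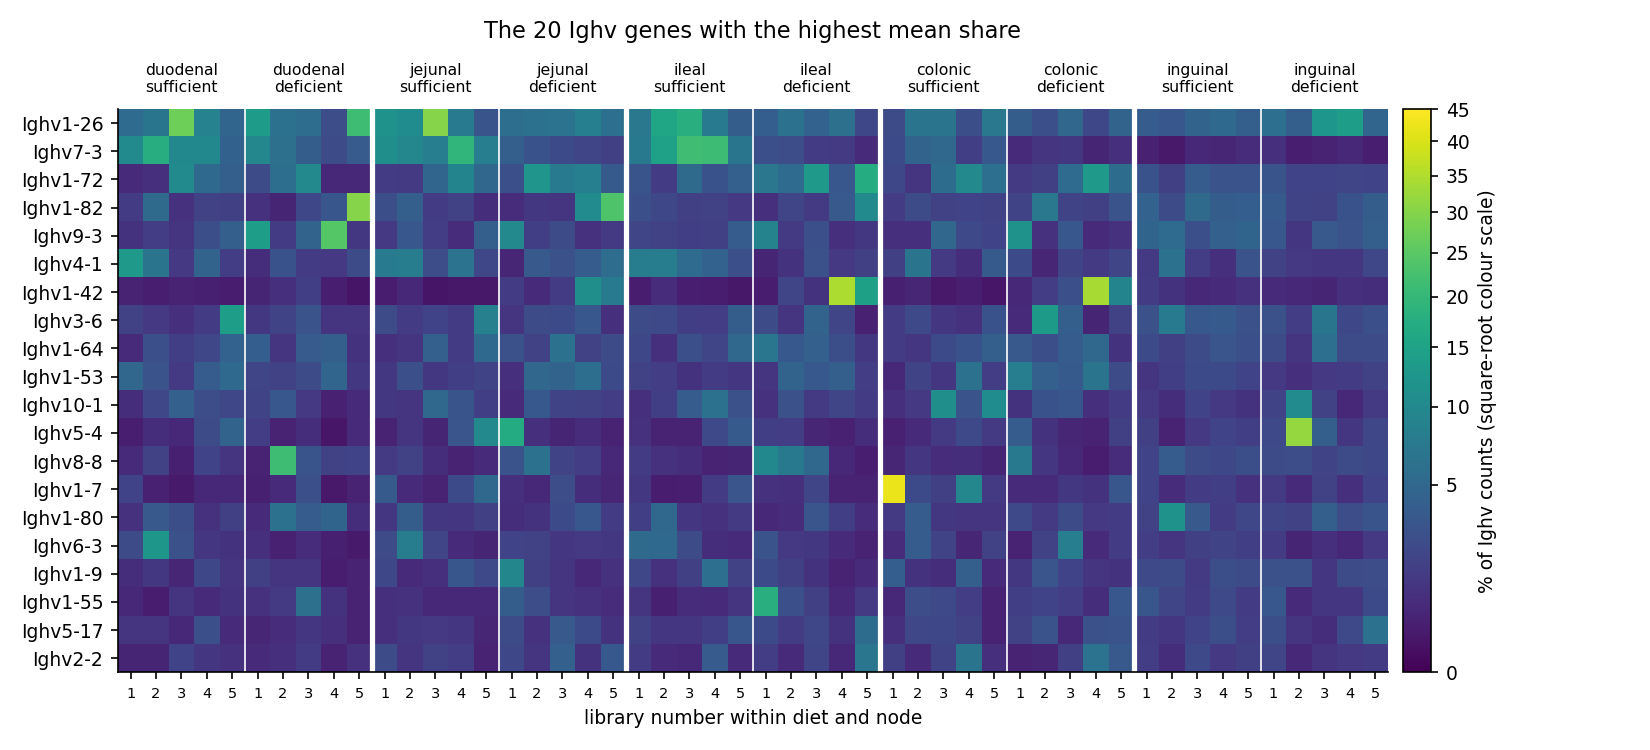
Percent of Ighv counts (square-root colour scale) of the 20 members with the highest mean share (rows) in the 50 libraries (columns, by node and diet). Ighv7-3 is bright in sufficient duodenal, jejunal and ileal libraries, Ighv1-42 in deficient jejunal, ileal and colonic 4 and 5, and Ighv1-7 reaches 42.4% in sufficient colonic 1.

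Ighv7-3 had the largest rise from inguinal to gut-draining nodes among the members called on the sufficient diet. It held 0.380%, 0.210%, 0.550%, 0.516% and 0.719% of Ighv counts in the 5 sufficient inguinal libraries. In sufficient ileal libraries it held 7.31%, 14.7%, 21.7%, 21.3% and 6.78%, and in jejunal ones 11.1%, 9.69%, 8.23%, 19.5% and 8.25%. Duodenal libraries ranged from 4.32% to 17.5% and colonic ones from 1.53% to 5.08%, so that every sufficient gut-draining library lay above every inguinal one. Ighv7-3 led 6 libraries, all of them sufficient and gut-draining. Its difference from inguinal nodes was 5.78 ± 0.58 (adjusted p = 3.27e-10) on the sufficient and 4.30 ± 0.54 (1.51e-07) on the deficient diet. The difference between the diets in that contrast did not pass (log2 -1.48, adjusted p = 0.553). Both calls held in all alternatives run.

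Ighv7-3 was also higher in small intestinal than in colonic nodes on the sufficient (1.56 ± 0.39, adjusted p = 0.0113) and the deficient diet (1.61 ± 0.40, 0.0208). The first call was lost in 2 of 19 alternatives (adjusted p up to 0.484), among them without sufficient number 4 (0.137). The second was lost in 4 of 19 (up to 0.600), among them without deficient number 1 (0.184) or 2 (0.124). On the deficient diet Ighv7-3 held 2.64%, 2.52%, 1.44%, 1.28% and 0.668% of Ighv counts in ileal libraries, all below the sufficient ones. Its level there was 26.5 ± 13.7 CPM (counts scaled to a common library total) against 114 ± 69.7 CPM (n = 5 each), a fall that passed (-2.03 ± 0.49, adjusted p = 0.00665). That call was lost in 2 of 19 alternatives (adjusted p up to 0.142), among them without the low Gm19220 libraries (0.0718). In duodenal nodes its share was 5.16% ± 2.84 on the deficient and 10.4% ± 4.68 on the sufficient diet, but its level differed little, at 61.3 ± 40.7 and 63.1 ± 36.9 CPM (0.03, adjusted p = 0.982). In jejunal and colonic nodes its level did not pass either (adjusted p = 0.399 and 0.371). Differences of the diet effect on Ighv7-3 among the 4 gut-draining nodes were not tested.

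**Figure D3:**
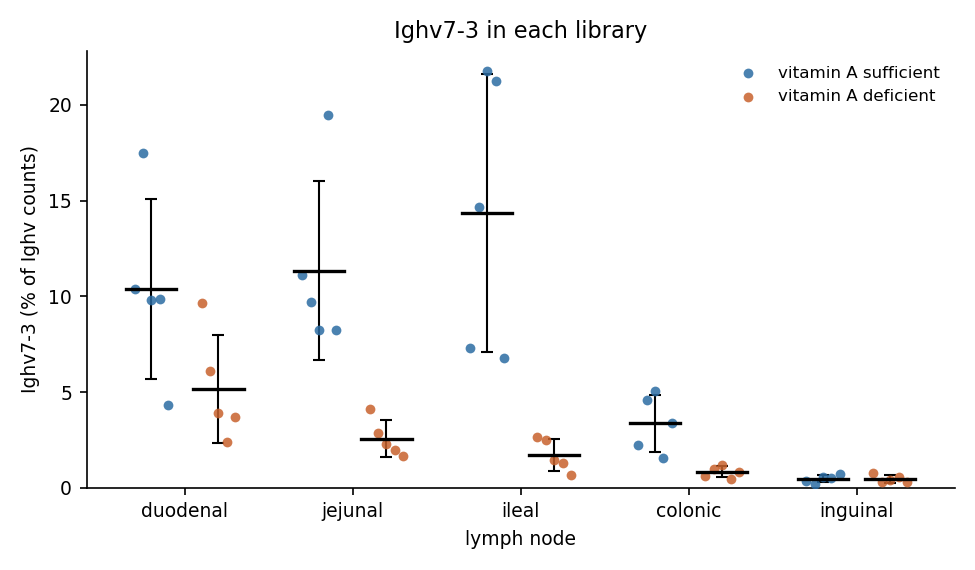
Ighv7-3 as a percent of Ighv counts (y axis) in each library, by node (x axis) and diet (colour), with the mean and SD of 5. Sufficient duodenal, jejunal and ileal libraries span 4.32% to 21.7%, deficient ileal libraries 0.668% to 2.64%, and all inguinal libraries lie under 1%.

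Between gut-draining and inguinal nodes on the sufficient diet, 20 of 90 members tested passed, against 17.2% of all genes. Of these 19 were higher (9.85% of all genes) and 1 lower (7.3%). Members higher beside Ighv7-3 were Ighv1-26 (2.60 ± 0.47, adjusted p = 6.68e-05), Ighv2-4 (5.50 ± 1.12, 0.000324) and Ighv4-1 (2.18 ± 0.47, 0.000566), and Ighv9-2 was lower (-1.53 ± 0.38, 0.00355). Ighv1-26 stood at 10.8 ± 1.51 CPM in inguinal nodes and at 42.8 ± 15.4 (colonic) to 89.5 ± 80.9 CPM (jejunal) in gut-draining ones. Its share of Ighv counts was 3.33% to 5.27% in inguinal libraries and reached 27.4% and 30.3% in duodenal 3 and jejunal 3. The count fell to 10 without sufficient number 4, to 11 without number 5 and to 4 with females alone, and limma-voom called 9, without Ighv2-4 (adjusted p = 0.134).

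On the deficient diet 30 of 90 members passed, all higher in gut-draining nodes, against 5.78% of all genes (3.79% higher, 1.98% lower). Ighv7-3, Ighv1-53 (3.47 ± 0.49, adjusted p = 1.59e-06), Ighv1-72 (3.61 ± 0.62, 6.50e-05) and Ighv1-22 (2.98 ± 0.54, 0.000121) had the smallest adjusted p. Ighv1-53 stood at 4.76 ± 1.22 CPM in inguinal nodes, 24.7 ± 8.31 CPM in duodenal nodes, 44.8 ± 23.8 CPM in ileal nodes and 98.5 ± 65.8 CPM in colonic nodes. The median log2 difference over the 90 members was 1.65, and -0.01 over all genes tested. The count was 19 without deficient number 1, 8 without the low Gm19220 libraries, which leaves 2 inguinal libraries, 14 by limma-voom and 46 by DESeq2. The calls of Ighv7-3, Ighv1-53 and Ighv1-72 were kept in each of these, and that of Ighv1-22 was lost without the low Gm19220 libraries (adjusted p = 0.0985). No member passed the test of whether the diets differ in this contrast, where 0.935% of all genes did. Without adjustment, 23 members had a p under 0.05 in edgeR, and DESeq2 called 3. Shares of all genes at those settings are not given here, so these counts are not read as a result about the members.

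Between small intestinal and colonic nodes, 8 of 90 members passed on the sufficient diet, against 3.91% of all genes, with 2 higher (2.7% of all genes) and 6 lower (1.21%). For the deficient diet 11 passed, against 1.8%, with 1 higher (1.29%) and 10 lower (0.503%). On the sufficient diet Ighv8-5 was higher beside Ighv7-3 (2.49 ± 0.70, adjusted p = 0.0285), and Ighv1-7 (-3.47 ± 0.63, 0.000292), Ighv1-18, Ighv2-9-1 and Ighv3-1 led the lower members. Ighv1-7 held 42.4%, 2.30%, 1.62%, 9.56% and 1.27% of Ighv counts in the 5 colonic libraries and 0.226% to 5.19% in small intestinal ones, and without sufficient number 1 it no longer passed (adjusted p = 0.0519). On the deficient diet Ighv5-12 (-3.01 ± 0.41, 2.99e-06), Ighv8-12, Ighv1-54 and Ighv1-81 were lower. Ighv5-12 held 0.0734%, 0.0794%, 0.311%, 1.13% and 2.77% of Ighv counts in deficient colonic libraries, and 0.0482% to 0.300% in deficient small intestinal ones. The sufficient count was 5 without number 1, 2 or 4 and 4 without number 3, and the deficient count 6 without number 1 and 7 without number 5. Calls lost without 1 number were those of Ighv8-5 (numbers 1 to 4, adjusted p up to 0.138), Ighv1-18 (number 2, 0.0811), Ighv2-9-1 (number 1, 0.285), Ighv3-1 (number 3, 0.598), Ighv8-12 (number 2, 0.229), Ighv1-54 (number 5, 0.108) and Ighv1-81 (number 1, 0.0581).

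Between duodenal and ileal nodes, 1 of 90 members passed on the sufficient diet, Ighv1-47, which was lower (-2.77 ± 0.69, adjusted p = 0.00620), against 8.21% of all genes (3.1% higher, 5.12% lower), and not without sufficient number 1 (0.103). On the deficient diet 7 of 90 passed, against 5.69%, with 1 higher (2.96% of all genes) and 6 lower (2.73%). Ighv14-4 was higher (2.31 ± 0.59, 0.00914), and Ighv1-42 (-4.46 ± 0.93, 0.00120), Ighv5-17, Ighv1-76 and Ighv14-3 were lower. The deficient count was 4 without number 2 or 5 and 2 without number 4. Ighv14-4 (without number 4, adjusted p = 0.541), Ighv5-17 (number 5, 0.130), Ighv1-76 (numbers 2, 4 and 5, up to 0.335) and Ighv14-3 (numbers 2, 4 and 5, up to 0.495) lost their calls.

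The diets were then compared within each node. In duodenal nodes 17 of 90 members passed, against 10.3% of all genes, with 15 higher under deficiency (6.33% of all genes) and 2 lower (4.02%). In jejunal nodes 15 passed, against 4.61%, with 14 higher (2.79%) and 1 lower (1.83%). In ileal nodes 12 passed, against 5.81%, with 8 higher (2.78%) and 4 lower (3.03%). In colonic nodes 10 passed, all higher, against 2.25% (1.29% higher, 0.963% lower), and in inguinal nodes 2, both higher, against 0.852% (0.548% higher, 0.304% lower). Without 1 sufficient number the duodenal count was 6 (number 1 or 2) or 7 (number 4), the jejunal count 6 (number 1), 3 (number 2) or 9 (number 4), the ileal count 6 (number 2) and the colonic count 5 (number 1) or 6 (number 3 or 5). Limma-voom called 2, 3, 5, 2 and 0 in the 5 nodes in that order, and females alone 1, 1, 1, 2 and 0. The shares of all genes are those of the main fit, so a changed count need not concern the members alone.

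Ighv1-42 was higher with deficiency in jejunal, ileal and colonic nodes. It held 0.152% to 1.40% of Ighv counts in all 25 sufficient libraries. In deficient ileal libraries it held 0.295%, 1.96%, 0.984%, 34.6% and 14.5%, and in colonic ones 0.615%, 1.48%, 2.66%, 34.1% and 9.12%. The high values were in numbers 4 and 5, which were also the highest in jejunal nodes (11.2% and 7.82%), whereas duodenal 4 and 5 held 0.307% and 0.153%. The fitted difference was 4.57 ± 1.21 (adjusted p = 0.0182) in jejunal, 5.67 ± 1.17 (0.00115) in ileal and 5.80 ± 1.16 (0.00223) in colonic nodes. Limma-voom did not call the ileal or colonic difference (adjusted p = 0.261 and 0.320).

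Ighv1-72 was higher with deficiency in all 4 gut-draining nodes, with its largest value in ileal nodes (3.61 ± 0.69, adjusted p = 0.000468). There it held 7.12%, 5.50%, 13.1%, 3.32% and 17.1% of Ighv counts on the deficient diet and 3.06%, 1.41%, 5.36%, 2.89% and 4.27% on the sufficient diet, so that shares overlapped. Its level, not adjusted for sex as the fold was, stood at 144 ± 100.4 CPM against 25.8 ± 10.7 CPM. Ighv1-53 passed in jejunal (2.25 ± 0.54), ileal (2.22 ± 0.53) and colonic nodes (2.51 ± 0.54; adjusted p = 0.00782, 0.00627 and 0.00512), the first and last not without sufficient number 1 (0.0616 and 0.0582). In ileal nodes Ighv1-55 was higher too (3.73 ± 0.80, 0.00191), with a share of 17.9% in number 1, and it did not pass without that number (0.0501).

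Further members were higher with deficiency, and differences of these effects between nodes were not tested. In duodenal nodes they were Ighv14-4 (3.16 ± 0.71, adjusted p = 0.00205), Ighv3-1 (4.10 ± 1.00), Ighv9-3 (3.53 ± 0.96) and Ighv2-5 (3.34 ± 0.92). Ighv9-3 held 14.1%, 1.40%, 4.61%, 24.5% and 1.16% of Ighv counts in deficient duodenal libraries and 0.961% to 4.11% in sufficient ones, and deficient number 1 also held 8.98% to 11.7% in its other gut-draining libraries. In jejunal nodes Ighv1-69 (3.9 ± 0.90), Ighv1-74 (2.41 ± 0.57) and Ighv5-17 (2.42 ± 0.57) had smaller adjusted p than Ighv1-53, and in colonic nodes Ighv5-12 (4.05 ± 0.70, 0.000295) and Ighv2-3 (2.78 ± 0.57, 0.00286) stood beside Ighv1-42. Calls of these members lost without 1 number were Ighv3-1 (sufficient 2, adjusted p = 0.0528), Ighv9-3 (sufficient 1 or 2 or deficient 4, up to 0.0832), Ighv2-5 (sufficient 1 or deficient 2, up to 0.218), Ighv1-69 (sufficient 2 or deficient 1, up to 0.128) and Ighv5-17 (sufficient 1 or 2 or deficient 1, up to 0.0646).

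Ighv2-4 was lower with deficiency in duodenal (-3.41 ± 0.98, adjusted p = 0.0172), jejunal (-4.62 ± 1.05, 0.00445) and ileal nodes (-3.64 ± 0.96, 0.0144). In sufficient jejunal libraries it held 4.43%, 1.20%, 0.0507%, 1.81% and 2.31% of Ighv counts, and in deficient ones at most 0.0595%. Number 3 was the low sufficient library in each of these 3 nodes. All 3 calls were lost without sufficient number 1 (adjusted p = 0.346, 0.150 and 0.421), the duodenal one also without deficient number 1 or 4 and the ileal one without deficient number 3. Ighv6-3 was lower in duodenal nodes (-2.61 ± 0.60, 0.00294; not without sufficient number 2, 0.201). Ighv3-5 (-2.74 ± 0.74, 0.0177) and Ighv4-1 (-1.79 ± 0.53, 0.0324) were lower in ileal nodes, and both lost the call without sufficient number 2, among others.

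In inguinal nodes Ighv10-1 (3.44 ± 0.78, adjusted p = 0.0168) and Ighv5-4 (5.02 ± 1.28, 0.0411) were higher with deficiency. Deficient inguinal 2 carried these values. Ighv5-4 held 2.18%, 31.8%, 4.09%, 1.11% and 2.06% of Ighv counts in the 5 deficient inguinal libraries, against 1.61%, 0.460%, 1.25%, 1.84% and 1.58% in sufficient ones. Ighv10-1 held 10.6% in deficient inguinal 2 and 0.605% to 1.91% in the other 4. Neither passed without the 5 libraries of deficient number 2 (adjusted p = 0.502 and 0.345), without sufficient number 1, 3, 4 or 5 (up to 0.154), without the sex term (0.190 and 0.234) or with the replicate number as a block (0.143 and 0.275).

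Dominance by 1 gene was next measured by the leading gene's share and by the effective number of genes, which is the number of equally used genes that would give the same diversity. Leading shares in sufficient inguinal libraries were 4.71%, 11.6%, 5.42%, 5.27% and 5.50%, and sufficient gut-draining libraries averaged 16.0% ± 8.94 (n = 20). The 11.6% belonged to Ighv1-80 in inguinal 2. The highest shares were 42.4% for Ighv1-7 in sufficient colonic 1 (95% Wilson interval 41.4% to 43.4%, counting error only), 34.6% and 34.1% for Ighv1-42 in deficient ileal 4 and colonic 4, 31.8% for Ighv5-4 in deficient inguinal 2, 30.3% for Ighv1-26 in sufficient jejunal 3 and 30.1% for Ighv1-82 in deficient duodenal 5. None of 11 comparisons of the leading share passed (exact two-sided permutation tests). The smallest adjusted p was 0.306, for gut-draining against inguinal nodes on the sufficient diet and for the diets in inguinal nodes (14.7% ± 10.6 against 6.51% ± 2.89, n = 5 each). With the 5 highest genes summed, the first of these passed (17.1 percentage points higher in gut-draining nodes, adjusted p = 0.0172 by the exact permutation test).

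**Figure D4:**
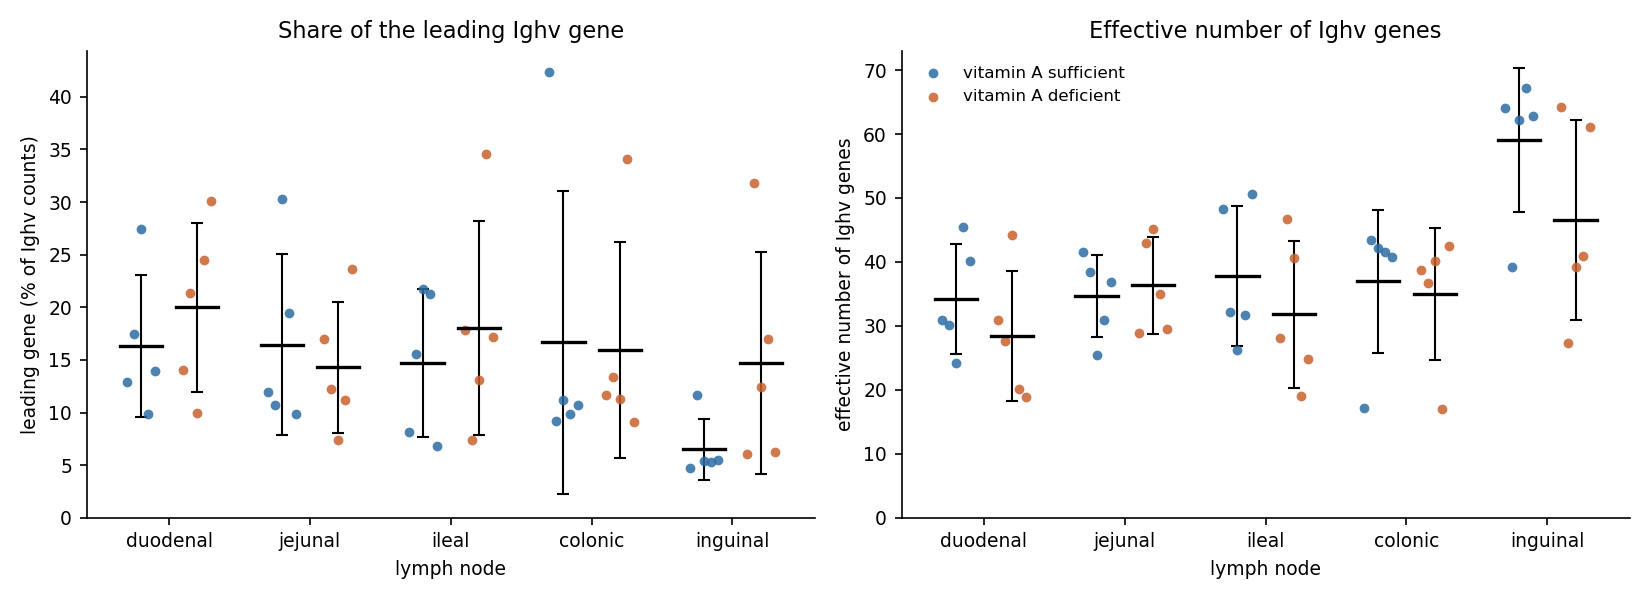
Left, the leading gene's percent of Ighv counts, and right, the effective number of Ighv genes, in each library by node (x axis) and diet (colour), with the mean and SD of 5. Sufficient inguinal libraries had a mean effective number of 59.1, and group means in gut-draining nodes lay between 28.4 and 37.8.

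The effective number of genes was 64.1, 39.3, 62.1, 67.2 and 62.8 in sufficient inguinal libraries and 64.2, 27.3, 39.3, 41.0 and 61.1 in deficient ones. In gut-draining libraries it ran from 17.0 to 50.7. Inguinal libraries held the fewest Ighv counts, and with every library thinned to 1456 Ighv counts no comparison of the leading share passed either.

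In every number except sufficient number 5, whose 4 gut-draining libraries had 4 different leading genes, 1 gene led at least 2 of the 4. Ighv7-3 led sufficient duodenal, jejunal and ileal 4, Ighv1-26 led sufficient duodenal and jejunal 3, Ighv1-72 led deficient duodenal, jejunal and ileal 3, Ighv1-42 led deficient jejunal, ileal and colonic 4, and Ighv1-82 led deficient duodenal and jejunal 5 (30.1% and 23.6%). Ighv1-82 held 0.483% to 7.26% in all gut-draining libraries other than those of deficient numbers 4 and 5. The overlap of Ighv use, which is the sum over genes of the smaller of a pair's 2 shares, had a median of 68.1% over the 30 pairs of gut-draining libraries with the same number on the sufficient diet, and 54.4% over 120 pairs with different numbers and nodes. For the deficient diet the medians were 59.4% and 47.5%. Ranges overlapped widely (36.1% to 81.4% and 34.1% to 72.0% on the sufficient diet). Inguinal libraries overlapped most with each other on the sufficient diet (median 78.6% over 10 pairs), and less with gut-draining libraries of their own number (54.6% over 20 pairs). Pairs share libraries, so these medians carry no test.

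Members fall into 15 families by sequence. Ighv1, with 65 of the 125 members, held 54.8% ± 9.54 of Ighv counts (SD over 50 libraries), Ighv5 6.95%, Ighv7 5.42%, Ighv2 5.07%, Ighv8 4.83% and Ighv9 4.46%. The Ighv7 family consists of Ighv7-3 (mean 5.07%), Ighv7-4 (0.204%) and Ighv7-1 (0.147%). The mean family share on the sufficient diet was 10.9% in duodenal, 11.8% in jejunal, 14.9% in ileal, 3.61% in colonic and 0.883% in inguinal nodes. With deficiency it was 5.47%, 2.73%, 1.90%, 1.28% and 0.721% in that order. None of 36 exact permutation tests of the 4 largest families (Ighv1, Ighv2, Ighv5 and Ighv7) passed, and 9 had an unadjusted p under 0.05. The smallest adjusted p was 0.0571, reached by Ighv7 for gut-draining against inguinal and small intestinal against colonic nodes on the sufficient diet and for the diets in jejunal and ileal nodes, and by Ighv1 in ileal nodes (61.0% ± 8.79 on the deficient and 46.1% ± 4.25 on the sufficient diet, n = 5 each, without overlap). Ighv7 did not overlap between the diets in jejunal or ileal nodes either. These diet tests had an unadjusted p of 0.00794, the smallest that 5 against 5 allows in the exact permutation test. With 36 tests adjusted together, complete separation did not pass, so the lack of a call does not show equal family use.

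**Figure D5:**
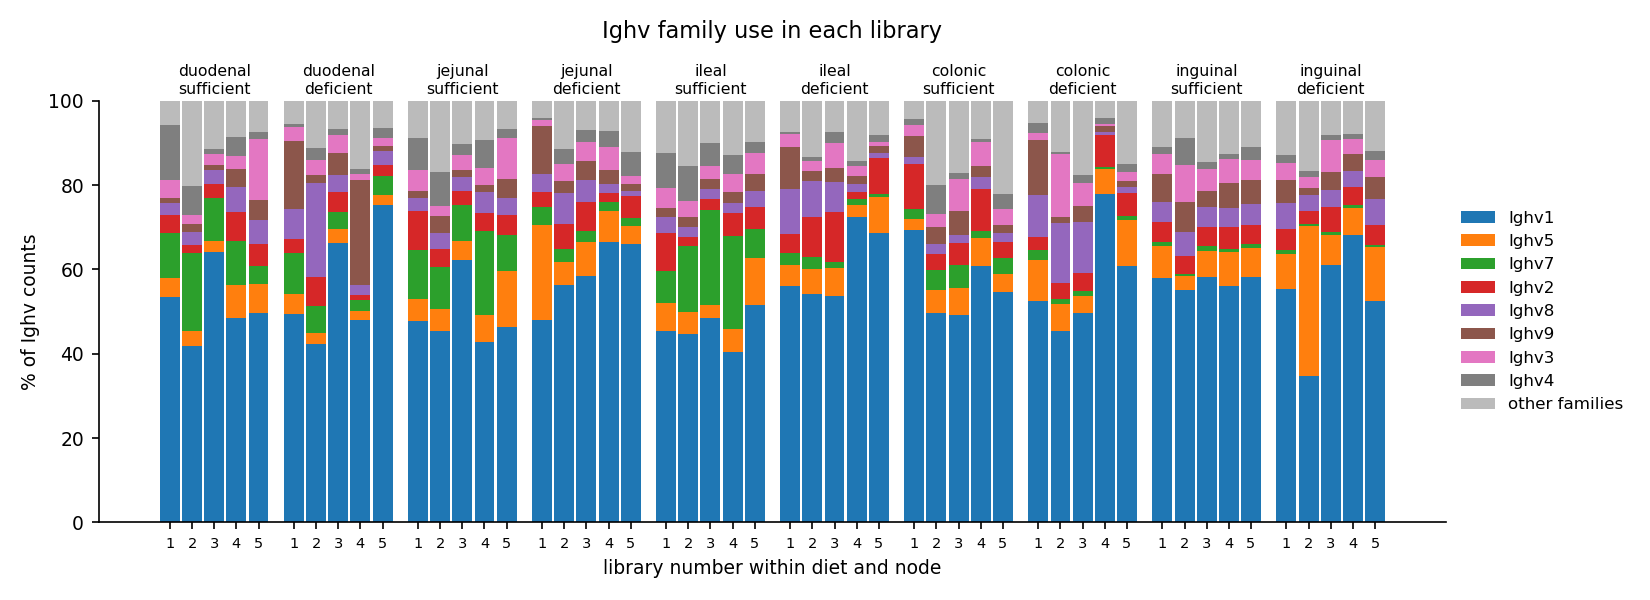
Percent of Ighv counts (y axis) in each family, stacked to 100%, for each of the 50 libraries (x axis, by node and diet). Ighv1 is the largest family in every library except deficient inguinal 2, where Ighv5 holds 35.6%; Ighv7 is widest in sufficient duodenal, jejunal and ileal libraries.

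By position in the locus, the 41 members nearest the J segments (Ighv5-1 to Ighv3-8) held 42.4% ± 3.18 of Ighv counts in sufficient ileal and 27.1% ± 4.76 in deficient ileal libraries (n = 5 each). The 43 farthest (Ighv1-43 to Ighv1-85) held 28.5% ± 5.77 and 42.1% ± 9.83. In duodenal, jejunal and colonic nodes the farthest group held 35.0%, 29.6% and 29.7% on the sufficient and 44.3%, 40.3% and 40.8% on the deficient diet. The nearest group held 36.0%, 40.1% and 30.3% on the sufficient and 31.7%, 31.1% and 27.7% on the deficient diet. In inguinal nodes the order of the diets was the other way for the farthest group, at 41.0% ± 3.04 on the sufficient and 32.0% ± 6.16 on the deficient diet. Ighv7-3 is among the nearest 41 and Ighv1-72 among the farthest 43, and no test was made of these sums.

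The 3 members known for their use by B-1 cells, which make natural antibody, were rare. Ighv11-2 held at most 1.30% and Ighv12-3 at most 0.413% of Ighv counts in any library, and Ighv11-1 did not pass the filter on low counts (at most 0.424%). Ighv12-3 held 0.154% to 0.413% in sufficient inguinal libraries and at most 0.365% in sufficient gut-draining ones. Neither tested member passed in edgeR's test in any of the 12 comparisons; the smallest adjusted p was 0.132, for Ighv12-3 between the diets in ileal nodes (log2 1.94, unadjusted p = 0.0138).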

How the data were processed

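RNA was extracted with TRIzol and libraries were made from poly(A) RNA, per the labels' protocols. The authors deposited 1 table of estimated counts per gene and library. The submitters' processing notes name kallisto, limma, edgeR, GRCm39 and mm10, with no role or version, so the annotation build of the counts is not known. Of 56600 rows, 379 have no gene name.

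From these counts, each library's Ighv share, its genes' and families' percentages and the effective number of genes (exponential of the Shannon entropy) were computed; Ighv counts were also thinned to 1456 per library (100 draws). Counts were rounded for edgeR 4.0.16 (R 4.3.3; filterByExpr, TMM, 10 group means and a sex term, all 50 libraries, quasi-likelihood test, Benjamini-Hochberg over 18077 genes, threshold 0.05). Standard errors were derived as the log2 fold change over the square root of F and are approximate. On data simulated for the duodenal diet comparison, 168 of 200 genes changed by log2 1 were recovered among 17755 genes, with 4.55% of calls false. The changed genes were drawn from the better expressed ones, with counts from a negative binomial model. Simulated libraries were drawn independently and with no sex effect. These rates need not hold for members carried by few libraries, for related libraries or for genes that differ by sex. Shares were tested by exact two-sided permutation over libraries (scipy 1.17.1), adjusted over 11, 11 and 36 tests. Alternatives used limma 3.58.1 (voom), DESeq2 1.42.0, other scalings and filters, females alone, a replicate block, and left-out libraries. Intervals and counts cover counting error only.

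All 125 members were matched by Ensembl ID to GENCODE M21 (GRCm38) for sequences, positions and lengths (297 to 480 bases). The counting is not stated to use strand. Genes named are the 8 members with the highest mean share, members leading at least 3 libraries, the member with the highest single share in each group, up to 4 members per direction and comparison with the smallest adjusted p, the 3 B-1 members, and up to 3 genes of each other list. Members and lists were chosen with earlier results of these data known. The labels tie no node to a mouse, and numbers were not taken as pairs in the main tests. Over the members, however, 22 of 25 libraries on each diet correlated best with their own number. If numbers stand for mice, the main tests left that pairing out. The added test of the diet interaction of the Ighv share did use the numbers, with 1 gut-draining minus inguinal value per number.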

Additional observations from a re-analysis of the deposited data

Results flagged for a closer look

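In 70 sets of 5 libraries (7 measures by 10 groups), a library stood far from the other 4 by Dixon's gap criterion in 13. The criterion is set for 1 in 20 of independent, normally spread sets. Here the 7 measures reuse the same libraries, so an excess over chance was not tested. Sufficient colonic 1 stood apart in the Ighv share of all counts (0.138% against 0.0727% to 0.0858%), in the leading gene's share (42.4% against 9.24% to 11.1%) and in the effective number of genes (17.1 against 40.7 to 43.5). Its leading gene was Ighv1-7. Sufficient inguinal 2, led by Ighv1-80, had a leading share of 11.6% (others 4.71% to 5.50%) and 39.3 effective genes (others 62.1 to 67.2). Deficient colonic 4, led by Ighv1-42, had a leading share of 34.1% (others 9.12% to 13.4%) and 17.0 effective genes (others 36.7 to 42.5).

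Families gave 6 further cases. Ighv1 held 62.1% in sufficient jejunal 3 (others 42.7% to 47.7%), and Ighv2 held 9.15% in sufficient jejunal 1 (others 3.28% to 4.70%). Ighv5 held 13.4% in sufficient jejunal 5 (others 4.59% to 6.32%), 22.6% in deficient jejunal 1 (others 4.32% to 8.06%) and 35.6% in deficient inguinal 2 (others 6.42% to 12.6%). In each of these 3 libraries the leading gene was Ighv5-4. Ighv7 held 20.1% in sufficient jejunal 4 (others 8.55% to 11.6%), which Ighv7-3 led.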

How the results depend on the processing

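Single members were followed for 51 results only, each a call of the main test picked for its small adjusted p. A change of direction was therefore unlikely from the start, and the other members were not followed. None of the 51 changed direction: over the alternatives, 831 values kept their direction and side of the threshold and 138 kept the direction but lost the call. The calls of Ighv7-3 and Ighv1-26 (sufficient) and of Ighv7-3, Ighv1-53 and Ighv1-72 (deficient) between gut-draining and inguinal nodes held in each alternative. Counts of members called moved by over 1.5 times under several settings. The causes were not tested. The share of all genes called is not given for the alternatives, so a moved count need not concern the members alone.

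With limma-voom the counts were 9 and 14 (gut-draining against inguinal, sufficient and deficient), 4 and 5 (small intestinal against colonic), 2 (duodenal against ileal, deficient) and 2, 3, 5, 2 and 0 for the diets in duodenal, jejunal, ileal, colonic and inguinal nodes. DESeq2 gave 46 (gut-draining against inguinal, deficient), 23 and 19 (diets, jejunal and ileal) and 3 (difference between diets). Females alone gave 4, 3 and 0 for the sufficient node comparisons and 1, 1, 1, 2 and 0 for the diets. Without the sex term the inguinal diet count was 0. Without the low Gm19220 libraries the counts were 8 and 7 for the deficient gut-draining against inguinal and small intestinal against colonic comparisons, and 0 for the inguinal diet comparison. Leaving out each number in turn gave 10 to 21 and 19 to 32 (gut-draining against inguinal, sufficient and deficient), 4 to 8 and 6 to 11 (small intestinal against colonic), 0 to 1 and 2 to 9 (duodenal against ileal), 6 to 19, 3 to 17, 6 to 14, 5 to 13 and 0 to 2 (diets, same node order) and 0 to 1 (difference between diets).

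With the replicate number as a block, 0 members were called between diets in inguinal nodes and 1 for the difference between diets. Over all genes, 19 of 25 libraries on each diet correlated best with their own number. Of 50 same-number correlations, 36 on the sufficient and 34 on the deficient diet exceeded 0.1, against 38 and 31 of 200 between different numbers. Over the members, 22 of 25 libraries on each diet correlated best with their own number, with medians of 0.336 (same number) and -0.084 (different) on the sufficient and 0.168 and -0.040 on the deficient diet. These are a hint that libraries of 1 number are related, which the labels do not state. The blocked log2 differences of the Ighv share were 1.48 and 1.98 (gut-draining against inguinal), -0.51 (duodenal against ileal, deficient) and 0.98, 1.06, 1.03 and 1.02 (diets in the 4 gut-draining nodes), all with adjusted p = 0.0764 in an exact sign-flip test whose smallest p is 0.0625, so that it could not pass.

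Females alone gave log2 share differences of 1.18 (gut-draining against inguinal, sufficient), 0.033 (duodenal against ileal, sufficient, reversed), -0.51 (the same, deficient) and 0.64, 1.49, 1.19 and 0.83 (diets in the gut-draining nodes), none of which passed. The deficient duodenal against ileal difference was also lost with Gm19220 and pancreatic genes out of the total (-0.40), relative to the B cell list (-0.44) and without the low Gm19220 libraries (-0.68), and ran from -0.63 to -0.34 with numbers left out (adjusted p = 0.0449 to 0.140, exact permutation test). The colonic diet difference without the low Gm19220 libraries was 1.38 and did not pass.

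The summed share of the 5 highest genes was 17.1 percentage points higher in sufficient gut-draining than inguinal nodes and passed, in the same direction as the leading gene's share, and it was the 1 of 11 tests that did. Differences that never passed changed sign as follows, in percentage points. Females alone gave 2.97 (leading share, diets, jejunal), -2.35 (Ighv1, diets, colonic), and 0.61 and 0.044 (Ighv2, diets, duodenal and inguinal). The 5 highest genes summed gave 2.75 and 2.30 (sufficient small intestinal against colonic and diets, colonic). Without each library's leading gene the values were -1.25 and 0.24 (Ighv1, deficient small intestinal against colonic and diets, inguinal), 0.35 (Ighv2, diets, inguinal) and 0.085 (Ighv7, diets, duodenal). Without the low Gm19220 libraries, leading shares gave -2.54, -0.71 and 6.19 (deficient small intestinal against colonic, deficient duodenal against ileal, diets colonic), Ighv1 gave -1.79, -6.31 and 4.63 and Ighv2 -0.34, -1.27 and 0.016 (deficient gut-draining against inguinal, deficient small intestinal against colonic, diets inguinal), Ighv2 -0.15 (diets, ileal) and Ighv7 0.00044 (diets, inguinal). With numbers left out, leading shares ran from -4.89 to 6.79 and -1.72 to 4.56 (small intestinal against colonic, sufficient and deficient), -0.50 to 7.46 (gut-draining against inguinal, deficient), -1.03 to 4.99 (duodenal against ileal, deficient) and -4.48 to 1.30, -0.82 to 5.97 and -5.29 to 5.67 (diets, jejunal, ileal and colonic). Ighv1 ran from -0.55 to 5.83 (deficient small intestinal against colonic), -4.72 to 3.63 and -6.19 to 2.17 (diets, colonic and inguinal). Ighv2 ran from -0.096 to 1.12 and -0.16 to 1.07 (gut-draining against inguinal), -0.51 to 1.91 (deficient small intestinal against colonic) and -1.37 to 0.017, -0.94 to 0.62 and -0.37 to 0.30 (diets, duodenal, jejunal and inguinal). Ighv5 ran from -1.23 to 0.013 and -0.20 to 2.14 (sufficient gut-draining against inguinal and small intestinal against colonic), and -0.65 to 4.22 and -1.37 to 0.62 (diets, jejunal and ileal).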
